A study of Saccharomyces cerevisiae with 2 samples.

Results

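The genes described here are 45 genes of DNA repair and the DNA damage checkpoint, out of 6256 genes on a budding yeast array. They were taken by name from the gene spots of both scanner files, with control spots left out. No measured value entered this rule, but the genes were chosen with earlier results of these data known. Of the 45 genes, 44 could be tested, among 5641 tested genes in all. The exception was NTG2, whose single spot was marked as an outlier on array 2. By role, 2 of the 45 genes reverse damage directly, 7 belong to base excision repair, 10 to nucleotide excision repair and 8 to recombination. A further 3 belong to mismatch repair, 7 to postreplication repair and translesion synthesis, and 8 to the checkpoint.

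The study compared RNA of a wild-type strain with RNA labelled as coming from a YDR374C deletion strain of Saccharomyces cerevisiae. Both strains are BY4741, a haploid laboratory strain that carries deletions of several biosynthetic genes, and both were grown in SD, a synthetic defined medium, to an OD600 of 0.7. No DNA-damaging agent is named in the labels. The 2 arrays, replicates 1 and 2, each held wild-type RNA in the green dye (Cy3) and the RNA labelled as deletion in the red dye (Cy5). The dyes were not swapped, so a dye effect particular to a gene cannot be told apart from a strain difference. Both arrays were on 1 slide, so variation between slides was not measured. The labels do not say whether the arrays hold separate cultures. Each p-value therefore rests on differences between this pair of arrays alone, pooled over genes, and those differences may be technical.

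Cells meet different kinds of DNA damage with different sets of proteins. In base excision repair a glycosylase removes a damaged base and an endonuclease cuts the strand at the abasic site, while nucleotide excision repair cuts out a stretch of strand around a bulky lesion such as a UV photoproduct. Recombination repairs breaks from an intact copy, mismatch repair corrects replication errors, translesion polymerases copy across lesions, and checkpoint kinases signal damage and halt the cell cycle.

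Before background correction, median signals of gene spots ranged from 1597 to 3105 scanner units over both dyes and arrays. The median signal of negative control spots, also uncorrected, ranged from 126 to 183. The normalised signals that follow are background-corrected, so they are not on that scale. Between arrays, the ratios had r = 0.958 and rho = 0.948 across genes, and genes are not independent of each other. The deleted gene was a weak check of the labels. YDR374C itself gave normalised signals of 254 in wild type and 215 in the RNA labelled as deletion on array 1, and of 285 and 245 on array 2. These signals were dim in both strains, and the log2 ratio was -0.23 ± 0.03 (SE, n = 2; limma, adjusted p = 2.74e-05). Of the 2 YDR374C spots, 1 was not well above background in either dye on either array, and it enters this mean. The other spot gave -0.24 on array 1 and -0.04 on array 2. Of 3 genes that BY4741 lacks, URA3 read above YDR374C. Its signal was 261 in wild type and 314 in the RNA labelled as deletion on array 1, and 412 and 541 on array 2. The log2 ratio of URA3 was 0.33 ± 0.04 (limma, adjusted p = 2.09e-06), so a gene that BY4741 lacks passed the test at a dim probe. LEU2 at 137 to 200 and MET17 at 99.8 to 115 read below YDR374C and were not well above background on either array. The position of the YDR374C probe is not given in the files, and every direction below rests on the labels.

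Ratios below are log2 of the RNA labelled as deletion over wild type, after background correction and normalisation. They are given as the mean over both arrays ± the standard error of limma's fit (SE, n = 2). That error draws mostly on variance pooled over all tested genes (prior of 13.2 degrees of freedom), not on a gene's own 2 values. For the repair genes it ran only from 0.0344 to 0.0400. "Rose" and "fell" stand for an adjusted p below 0.05 over all tested genes. Signals are normalised scanner units, which depend on the probe, so they are compared only within a gene.

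Of the 44 tested repair and checkpoint genes, 20 rose, 17 fell and 7 did not pass the test. This must be read against all genes, since 73.1% of the 5641 passed it, 36.4% higher and 36.7% lower. Among the repair genes 84.1% passed, 45.5% higher and 38.6% lower. Most differences were small: 29 of the 44, or 65.9%, had an absolute log2 ratio under 0.25, and the same share of all genes, 65.9%, did. The median log2 ratio was 0.05 for the repair genes and -0.0019 for all genes, and the median absolute log2 ratio was 0.177 against 0.169. By the scanner software's own p-value, only 6 repair genes were below 0.05 in all kept spots, with the same sign. They were APN1, MAG1, RAD23, RAD3, RAD6 and REV1. Below 0.01 there were 3, APN1, MAG1 and RAD23. That p-value is for single spots, and the share of all genes was not counted.

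Larger differences were found in 4 of the 44 genes. With an absolute log2 ratio of at least 0.5 as a further condition, 3 genes were higher (REV1, MAG1 and RAD23) and 1 was lower (APN1), where 8.01% of all genes passed, 4.13% higher and 3.88% lower. Over all genes that limit split the calls into 233 higher and 219 lower, and with median centring into 338 and 173. The nearest genes inside that limit were RAD6 at 0.45 and PMS1 at -0.48, which passed the limit with no offset, with median centring, with the scanner software's ratios and in the authors' deposited table. With median centring RAD23 stood just inside the limit, at 0.497, and RAD3 passed it at 0.52. Tested against a 1.5-fold change, APN1 alone passed, as lower, where 1.45% of all genes passed, 0.709% higher and 0.745% lower (40 and 42 genes, and 66 and 26 with median centring). The arrays gave the same sign for 43 of the 44 genes, XRS2 being the exception. The median difference between arrays was 0.0400 on the log2 scale, and the largest was 0.154, for MEC3. Between the 2 kept spots of a gene on a single array, the median difference was 0.0786. The largest was 0.320, also for MEC3.

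**Figure D1:**
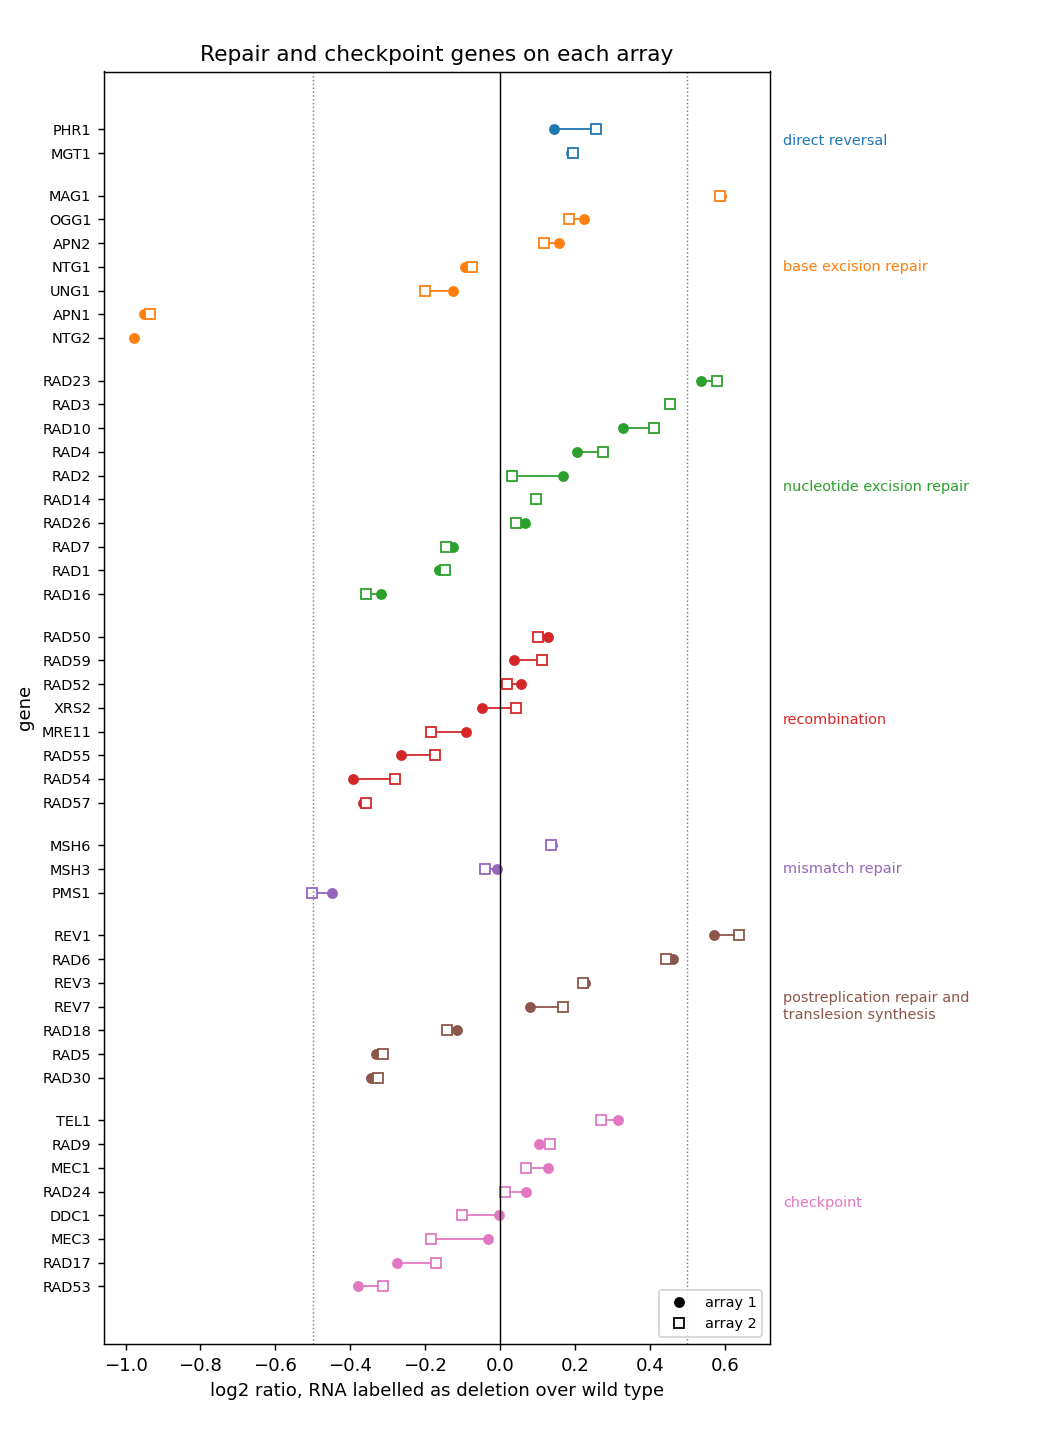
Log2 ratio (RNA labelled as deletion over wild type, horizontal axis) of each repair gene on array 1 and array 2, grouped by pathway; points are single arrays. APN1 and NTG2 stand at the low end near -0.95, and NTG2 has a point for array 1 alone because its array 2 spot was left out as an outlier.

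Base excision repair held the widest spread, from APN1 at the low end to MAG1 near the high end. Of its 6 tested genes 3 rose and 3 fell, where 36.4% of all genes rose and 36.7% fell. The median was 0.03. APN1 encodes the major endonuclease that cuts at abasic sites. Its normalised signal was 12211 in wild type and 6322 in the RNA labelled as deletion on array 1, and 17449 and 9123 on array 2. Both strains were bright and the lower strain was the same on each array. The log2 ratios were -0.95 and -0.94, with a mean of -0.94 ± 0.03, 1.92-fold lower (limma, adjusted p = 3.14e-11, and 7.16e-06 against a 1.5-fold change). It stood at rank 8 of the 5641 genes from the lowest ratio. With median centring APN1 was smaller in size, at -0.76. Its 4 single spots lay between -0.98 and -0.92.

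NTG2, a glycosylase for oxidised pyrimidines that also nicks the strand, had a ratio of similar size but no test. On array 1 its signal was 4153 in wild type and 2110 in the RNA labelled as deletion, a log2 ratio of -0.98. The spot marked as an outlier on array 2 gave -0.90, and with outlier spots kept the mean was -0.94 ± 0.04 (limma, adjusted p = 2.68e-10). NTG1, its paralogue with a partly mitochondrial role, fell by only 0.08 on the log2 scale (limma, adjusted p = 0.0402), a call lost with no offset, with the scanner software's ratios and in the authors' deposited table, and a sign that turned with median centring. The paralogues thus differed in size on the array where both were kept, with NTG1 at -0.09 on array 1.

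MAG1 encodes the glycosylase that removes alkylated bases. Its signal was 6523 in wild type and 9817 in the RNA labelled as deletion on array 1, and 10775 and 16177 on array 2. The increase was the same on both arrays at 2 decimals, 0.59, or 1.503-fold (mean 0.59 ± 0.03; limma, adjusted p = 1.92e-09). With median centring MAG1 stood at 0.77. Of its 4 spots, 1 on array 2 was left out as an outlier and gave 0.57. OGG1, the glycosylase for oxidised guanine, rose by 0.20 ± 0.03, and APN2, the minor abasic endonuclease, by 0.14 ± 0.03. UNG1, which removes uracil, fell by 0.16 on the log2 scale. The glycosylases therefore moved in both directions, and the abasic endonucleases APN1 and APN2 moved in opposite ones.

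**Figure D2:**
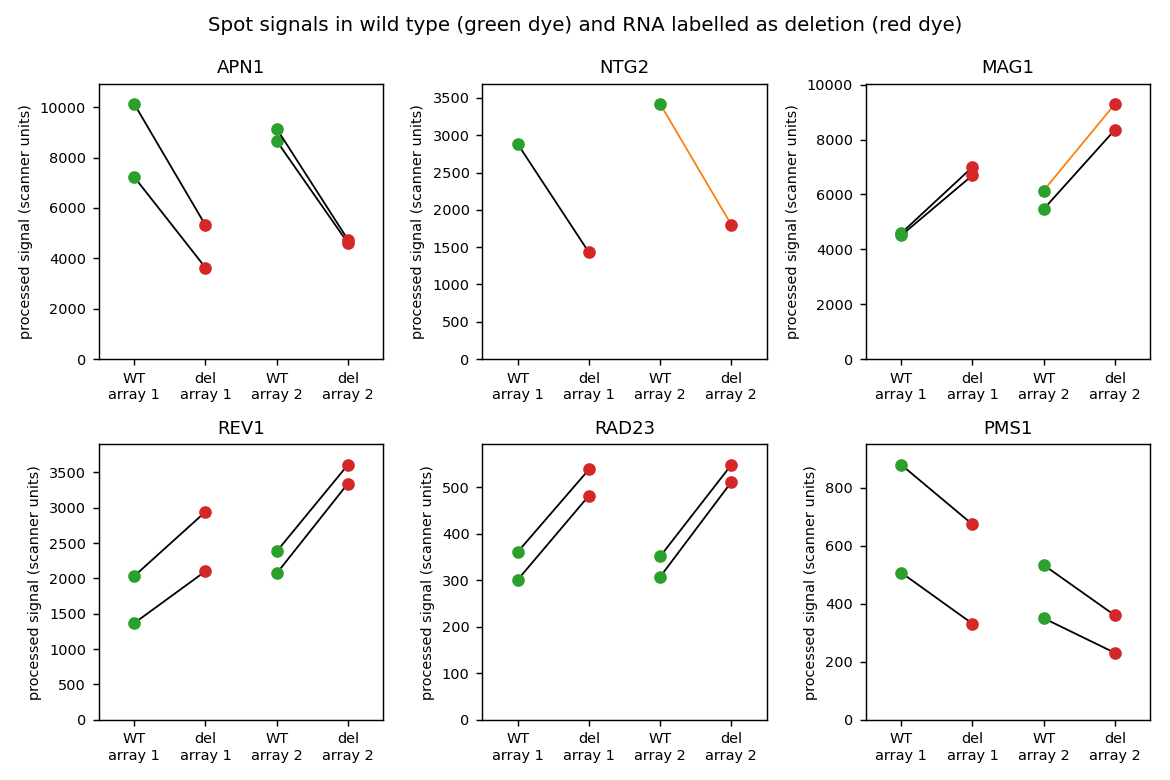
Processed scanner signals (vertical axis, scanner units, starting at 0) of every spot of 6 repair genes in wild type (WT, green points) and the RNA labelled as deletion (del, red points) on each array. Lines join the dyes of 1 spot, and orange lines mark spots left out as outliers; every line falls for APN1, NTG2 and PMS1 and rises for MAG1, REV1 and RAD23.

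The 2 genes of direct reversal both rose by small amounts, where 36.4% of all genes rose. MGT1, the methyltransferase that takes alkyl groups off guanine, read 1521 in wild type and 1736 in the RNA labelled as deletion on array 1, and 1775 and 2031 on array 2. Its log2 ratio was 0.19 ± 0.03 (limma, adjusted p = 1.46e-04). PHR1, the photolyase that splits UV dimers with light energy, was dimmer, at 292 and 322 on array 1 and 441 and 527 on array 2. Its ratios were 0.14 and 0.26, with a mean of 0.20 ± 0.04 (limma, adjusted p = 2.24e-04). The PHR1 signals lay within the range of those of URA3, which BY4741 lacks and which passed the test.

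In nucleotide excision repair, 6 of 10 genes rose, 3 fell and RAD26 did not pass, where 36.4% of all genes rose and 36.7% fell. The median was 0.10. The damage recognition partners RAD4 and RAD23 both rose. RAD23, which binds and stabilises Rad4, read 562 in wild type and 815 in the RNA labelled as deletion on array 1, and 784 and 1171 on array 2. The higher strain was the same in all 4 of its spots. Its log2 ratios were 0.54 and 0.58, with a mean of 0.56 ± 0.03, or 1.47-fold (limma, adjusted p = 3.54e-09). RAD4, the lesion-binding partner, rose by 0.24 ± 0.04.

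The other recognition pair went the opposite way. RAD16 and RAD7 act together in repair of DNA that is not being transcribed. RAD16 read 2136 in wild type and 1714 in the RNA labelled as deletion on array 1, and 2574 and 2009 on array 2. It fell by 0.34 on the log2 scale (limma, adjusted p = 5.84e-07), and RAD7 fell by 0.14. The factors that open and cut the DNA were divided. RAD3, a helicase of TFIIH, rose by 0.45 ± 0.03 and RAD10 by 0.37 ± 0.04, while RAD1, which forms a nuclease with Rad10, fell by 0.16. The proteins of this nuclease work as a pair, and the RNA ratios of its genes had opposite signs on both arrays. RAD2, the other nuclease, rose by 0.10 ± 0.04 (0.17 on array 1 and 0.03 on array 2), and RAD14, which binds damaged DNA, by 0.09 ± 0.03. Both calls were lost with the scanner software's ratios, and that of RAD2 also with median centring and in the authors' deposited table. RAD26, which acts in transcription-coupled repair, had a ratio of 0.05 ± 0.03 (limma, adjusted p = 0.172).

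In recombination, RAD50 alone of 8 genes rose, 4 fell and 3 did not pass, where 36.4% of all genes rose and 36.7% fell. The median was -0.07, and -0.12 with median centring. The genes that fell included RAD54, RAD55 and RAD57, which assist strand exchange. RAD57 read 1265 in wild type and 981 in the RNA labelled as deletion on array 1, and 1578 and 1232 on array 2. It fell by 0.36 on the log2 scale (limma, adjusted p = 2.57e-07). RAD55, whose product pairs with Rad57, fell by 0.22, and RAD54, a motor protein that moves along DNA, by 0.34. RAD52, which anneals single strands, and its paralogue RAD59 had ratios of 0.04 and 0.07 (limma, adjusted p = 0.349 and 0.0734).

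The 3 genes of the complex that first binds broken ends did not share a direction. RAD50, its SMC-like subunit, gave signals of 763 and then 833 on array 1, wild type first, and of 860 and then 923 on array 2, a log2 ratio of 0.11 ± 0.03 (limma, adjusted p = 0.00788, and 0.157 with median centring). MRE11, the nuclease, fell by 0.14 on the log2 scale, with -0.09 on array 1 and -0.18 on array 2. XRS2, the third subunit, stood at -0.05 on array 1 and 0.04 on array 2, so its signals did not separate the strains (limma, adjusted p = 0.943).

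Mismatch repair held 1 gene that rose, 1 that fell and 1 that did not pass, where 36.4% of all genes rose and 36.7% fell. PMS1, a MutL homologue that acts after a mismatch is found, read 1041 in wild type and 762 in the RNA labelled as deletion on array 1, and 965 and 682 on array 2. It fell by 0.48 on the log2 scale, or 1.39-fold lower (limma, adjusted p = 1.80e-08), and was lower in all 4 spots. MSH6, which recognises base mismatches, gave 3964 in wild type against 4362 on array 1, and 4823 against 5299 on array 2, and rose by 0.14 ± 0.03. MSH3, which recognises larger loops, stood at -0.02 ± 0.03 (limma, adjusted p = 0.539).

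In postreplication repair and translesion synthesis, 4 of 7 genes rose and 3 fell, where 36.4% of all genes rose and 36.7% fell. The median was 0.12. That median was the value of REV7, which stood at 0.08 on array 1, 0.17 on array 2 and 0.07 with median centring. The translesion polymerases divided by enzyme. REV1, a deoxycytidyl transferase that also serves as a scaffold for other polymerases, read 2447 in wild type and 3633 in the RNA labelled as deletion on array 1, and 4405 and 6859 on array 2. It was higher in all 4 spots, with log2 ratios of 0.57 and 0.64 and a mean of 0.60 ± 0.04, or 1.52-fold (limma, adjusted p = 2.03e-09). REV3 and REV7, the catalytic and accessory subunits of polymerase zeta, rose by 0.22 ± 0.03 and 0.12 ± 0.04, the call of REV7 being lost with median centring (limma, adjusted p = 0.118). REV3 was dim. It read 292 in wild type and 341 in the RNA labelled as deletion on array 1, and 362 and 423 on array 2. Its signals lay within the range of those of URA3, which BY4741 lacks, and its 4 spots gave 0.12 to 0.33. RAD30, polymerase eta, which copies UV dimers accurately, gave 1431 in wild type against 1126 on array 1, and 1438 against 1148 on array 2. It fell by 0.34 on the log2 scale (limma, adjusted p = 5.72e-07).

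The ubiquitin enzymes that act on the sliding clamp also split. RAD6, the conjugating enzyme, read 2279 in wild type and 3136 in the RNA labelled as deletion on array 1, and 4459 and 6064 on array 2. It rose by 0.45 ± 0.03 (limma, adjusted p = 2.53e-08). Its ligase partner RAD18 fell by 0.13 on the log2 scale, and RAD5, the ligase and helicase of the error-free branch, by 0.32. The partners Rad6 and Rad18 bind each other as proteins, yet their RNA ratios had opposite signs on both arrays.

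Checkpoint genes centred on no change: 3 of 8 rose, 3 fell, 2 did not pass, and the median was -0.01. Over all genes 36.4% rose and 36.7% fell. The apical kinases both rose. TEL1 read 2166 in wild type and 2696 in the RNA labelled as deletion on array 1, and 2554 and 3078 on array 2, a log2 ratio of 0.29 ± 0.03 (limma, adjusted p = 2.80e-06). MEC1, the kinase that senses single-stranded DNA, rose by 0.10 ± 0.04, and the adaptor RAD9 by 0.12 ± 0.03. Of the checkpoint clamp and its loader, RAD17 fell by 0.22 and MEC3 by 0.11 on the log2 scale, and DDC1 stood at -0.05 and the loader gene RAD24 at 0.04 (limma, adjusted p = 0.214 and 0.306). The call of MEC1 was lost with median centring, where DDC1 passed at -0.11, and the call of MEC3 was lost in the authors' deposited table. MEC3 stood at -0.03 on array 1 and -0.19 on array 2, and was -0.17 with median centring. Its 2 spots on array 1 gave -0.19 and 0.13.

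RAD53 encodes the effector kinase, and its probe was dim. Its signal was 259 in wild type and 199 in the RNA labelled as deletion on array 1, and 449 and 362 on array 2, and 1 of its 4 spots was not well above background in red. The direction was the same in all 4 spots. It fell by 0.35 on the log2 scale (limma, adjusted p = 5.68e-07), but the size differed between settings. It was -0.44 with no offset in the background correction, -0.29 with spots well above background in both channels, -0.82 with the scanner software's ratios and -0.62 in the authors' deposited table. For RAD24, the dimmest of the 44, the scanner software's ratios gave 0.15, and its red signal was well above background on 1 of the 2 arrays.

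**Figure D3:**
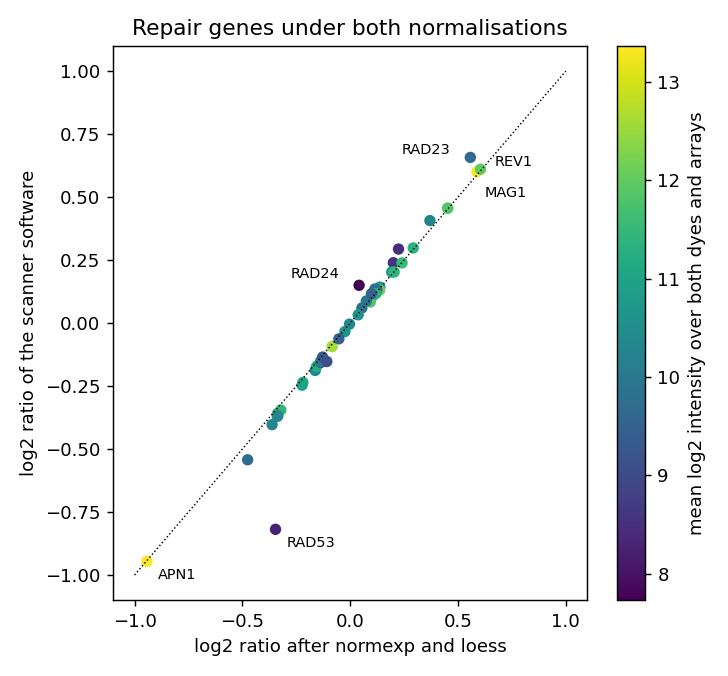
Mean log2 ratio of each tested repair gene after normexp and loess (horizontal axis) against the mean log2 ratio of the scanner software (vertical axis), coloured by the mean log2 intensity; the dotted line marks equal values. Most points lie on the line, and the dim gene RAD53 lies farthest from it, at -0.35 and -0.82.

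Side by side, the pathway medians ran from -0.07 for recombination to 0.20 for direct reversal. Genes that rose were 6 of 10 in nucleotide excision repair and 1 of 8 in recombination, against 36.4% of all genes, and genes that fell were 3 of 10 and 4 of 8, against 36.7%. No test was made between pathways, because the genes were chosen by name and are few. The base excision median was 0.06 with median centring and turned to -0.08 when NTG2 entered with outlier spots kept. The mismatch repair median was -0.07 with median centring and ran from -0.04 to -0.01 on single arrays. The checkpoint median was 0.03 with the scanner software's ratios and 0.01 with the authors' deposited table, and it was -0.07 with median centring and -0.05 with spots well above background in both channels, a setting chosen after seeing the data. On single arrays it was 0.03 and -0.04. In every pathway except direct reversal, some genes rose and others fell.

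**Figure D4:**
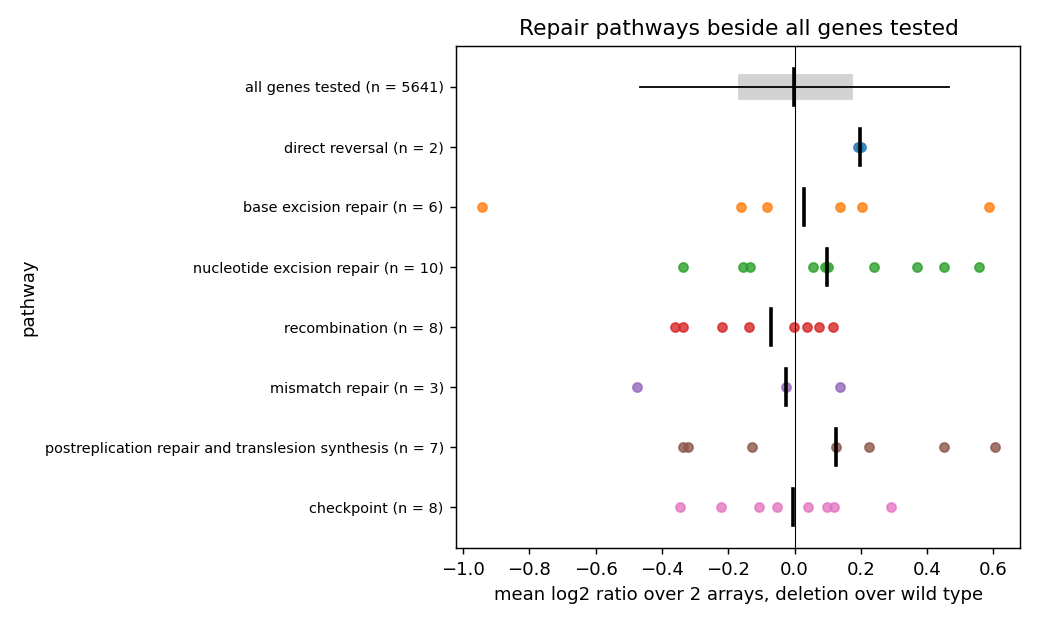
Mean log2 ratios over both arrays (vertical axis positions list the pathways, horizontal axis gives the ratio) of the tested genes of each pathway, with a bar at each median; for all tested genes the box is the interquartile range and the line spans percentiles 5 to 95. Recombination has the lowest median, -0.07, and direct reversal the highest, 0.20.

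Other genes of the same pathways, 83 in all, were read from lists, which were also chosen with earlier results of these data known. Of the 78 tested, 23 rose, 35 fell and 20 did not pass, with a median of -0.04. All genes tested divided into 36.4% that rose and 36.7% that fell. Of 16 other nucleotide excision repair genes 7 rose and 6 fell, with a median of -0.0032. Of 5 in base excision repair 1 rose and 2 fell, of 4 in mismatch repair 1 rose and 2 fell, and of 7 in postreplication repair 2 rose and 3 fell. Of 33 other recombination and end joining genes 8 rose and 14 fell, or 24.2% and 42.4%, with a median of -0.04. DNL4, the ligase of end joining, fell by 0.66 on the log2 scale and YKU80, which binds broken ends as part of the Ku dimer, by 0.60 (limma, adjusted p = 7.65e-10 and 2.00e-09). Its partner YKU70 stood at -0.01 (limma, adjusted p = 0.888). RFA2, a subunit of the single-strand binding complex RPA, fell by 0.54, while RFA1 rose by 0.13.

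Further genes of mismatch, postreplication and nucleotide excision repair were also on the array. MLH2, another MutL homologue, rose by 0.43 ± 0.03. In postreplication repair, UBC13 rose by 0.51 ± 0.04 and MMS2, with which its product forms a conjugating enzyme, fell by 0.44 on the log2 scale. The sliding clamp gene POL30 fell by 0.31, and ELG1, which helps to unload the clamp, by 0.56. RAD33, which binds Rad4, rose by 0.70 ± 0.04 (arrays 0.78 and 0.62; limma, adjusted p = 1.60e-09).

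Of 13 other checkpoint and replication fork genes, 4 rose, 8 fell and CHK1 did not pass, with a median of -0.18. Over all genes 36.4% rose, 36.7% fell and 73.1% passed in either direction. DUN1, a kinase downstream of Rad53, fell by 0.45, and the fork mediators TOF1 and MRC1 by 0.42 and 0.41. CSM3, grouped with these mediators, rose by 0.10 ± 0.04 (limma, adjusted p = 0.0239). LCD1, the partner of Mec1, fell by 0.30. PTC2, a phosphatase that switches Rad53 off, rose by 0.59 ± 0.04. RTT107, a scaffold at damaged forks, fell by 0.60 and MMS1, of a ubiquitin ligase that acts there, rose by 0.52 ± 0.03.

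A list of 17 genes known to be induced by DNA damage, 7 of them among the 45, held 4 that rose, 10 that fell and 3 that did not pass, with a median of -0.14. Of all genes, 36.4% rose, 36.7% fell and 73.1% passed in either direction. HUG1, a small inhibitor of ribonucleotide reductase, read 967 in wild type and 448 in the RNA labelled as deletion on array 1, and 1312 and 647 on array 2. It fell by 1.07 on the log2 scale. The reductase genes RNR2 and RNR3 fell by 0.29 and 0.28, and RNR4 stood at -0.04 (limma, adjusted p = 0.338). The 4 that rose were MAG1, RAD23, PHR1 and RAD2, and RAD54, RAD7 and RAD16 were among those that fell. DDI1, which shares a promoter region with MAG1, fell by 0.12, and RFX1, a repressor of damage-induced genes, stood at 0.04 (limma, adjusted p = 0.385).

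A second list held 15 repair and replication genes whose RNA is known to peak at G1/S, when cells enter DNA replication. Of these, 11 fell, 2 rose (MSH6 and RFA1) and 2 did not pass, with a median of -0.32, and for all genes the share that fell was 36.7%. The list overlaps the pathways above: PMS1, RAD53, RAD54 and UNG1 are on it and fell. RNR1, the large subunit of ribonucleotide reductase, fell by 0.53. RAD27, the flap nuclease of base excision repair and replication, stood at 0.06 (limma, adjusted p = 0.169). Whether the strains differed in their share of cells in G1 or S phase was not measured here.

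**Figure D5:**
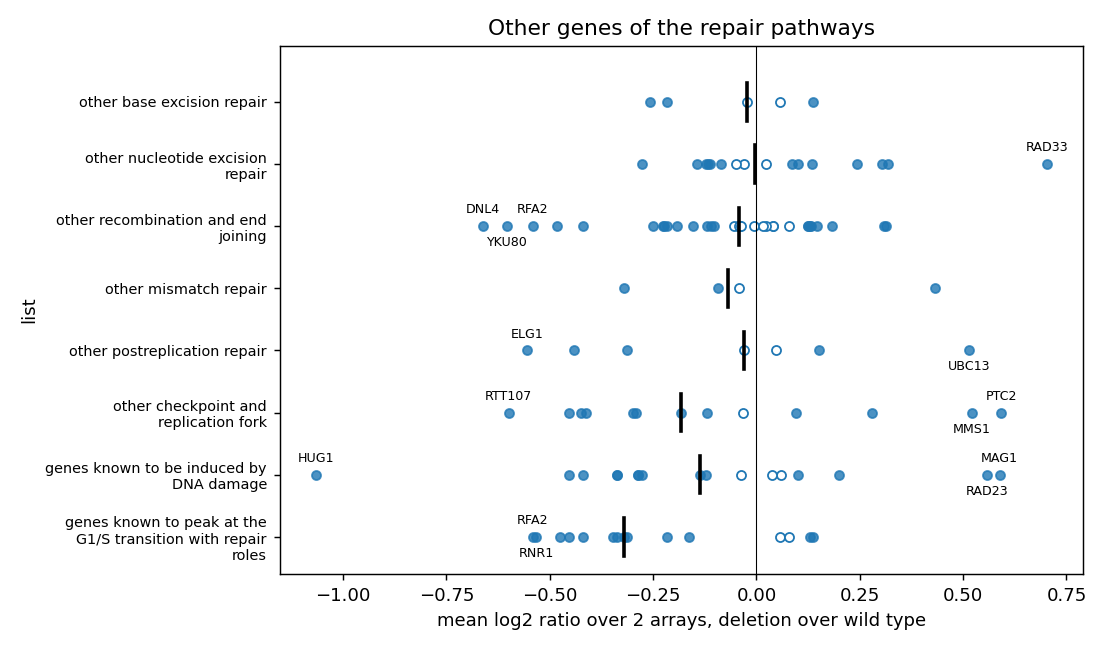
Mean log2 ratios over both arrays (horizontal axis) of the genes in 8 further lists; filled points passed limma's test, open points did not, and bars mark medians. The last 2 lists share members with the pathways; the G1/S list has the lowest median, -0.32, and HUG1 is the lowest point, at -1.07.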

How the data were processed

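Per the file headers, the deposited scanner tables list red and green intensity, background and flags by spot, from Agilent Feature Extraction 9.5.3.1 (the submitters' processing notes name 9.3.2.1). They also hold the deposited log10 ratio of red over green and its p-value. The authors' log2 values form a separate deposited table. These ran in the direction of the scanner ratios, with slopes of 0.985 and 0.988 and medians of -0.00491 and -0.000163; how spots were averaged was not stated.

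Mean signals were background-corrected (normexp, offset 50) and loess-normalised within each array in limma 3.58.1 (R 4.3.3), with control spots at weight 0. Spots marked as outliers were left out (6.47% and 8.92%), and spots of a gene were averaged. A gene needed, on both arrays, a channel well above background, and was then tested against 0 over the 2 arrays, with Benjamini-Hochberg adjustment over all 5641 and a threshold of 0.05. The test was tried on simulated data with independent noise, which cannot bear on dye effects or on whether the arrays are technical replicates. RefSeq (R64) held 5756 of the 6256 systematic names.

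The 45 genes and the lists were chosen with earlier results of these data known. Signals on each array are given for genes past the test with an absolute log2 ratio of at least 0.5 and for the highest and lowest tested gene of each pathway. Of the other pathway genes, those past 0.5 and a fixed set of direct partners are named. The signals of NTG2, RAD6, HUG1 and REV3, and YKU70, RFA1, MLH2, MMS2, POL30, TOF1, MRC1 and CSM3, were chosen after their values were seen. Alternatives were other background corrections, normalisations, sources, filters and thresholds, and each array left out. Some genes of these pathways are not reported here.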

Additional observations from a re-analysis of the deposited data

How the results depend on the processing

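Leaving aside the stricter thresholds, 351 pairs of a repair gene and an alternative setting were compared. Of these, 334 kept direction and side of the threshold, 11 lost the call, 2 gained it and 4 changed sign; 30 of the 37 called genes kept their call throughout. The causes were not tested. Against a 1.5-fold change, 0 repair genes passed as higher and 1 as lower (20 and 17 in limma's test against 0), and with an absolute log2 ratio of at least 0.5, 3 and 1. The number lower by at least 0.5 was 2 with no offset, with median centring and with outlier spots kept, and 3 with the scanner software's ratios and with the authors' deposited table. The median over the repair genes was 0.0718 with the scanner software's ratios, 0.0692 with the deposited table, 0.00897 with median centring, and 0.0372 to 0.0608 with 1 array left out. The base excision median turned to -0.0838 with outlier spots kept. The checkpoint median turned to 0.0268 with the scanner software's ratios and to 0.0103 with the deposited table, and ran from -0.0446 to 0.0334 with 1 array left out. NTG1 turned to 0.0227 with median centring (limma, adjusted p = 0.555), where RAD26, RAD52 and RAD24 stood at -0.00298, -0.00262 and -0.0344. XRS2 ran from -0.0478 to 0.0414 with 1 array left out. The dim genes RAD53 and RAD24 are limited by signal over background. REV3 and PHR1 were also dim, with mean log2 intensities of 8.46 and 8.59, beside 8.52 for URA3, which BY4741 lacks. The 2 arrays with 1 dye orientation limit every value.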

Other observations

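The repair genes were set beside the genes next to them on the chromosome, in the gene order of RefSeq R64. Of 77 pairs of a repair gene and a tested neighbour, 41 had the same sign. APN1 fell by 0.94 on the log2 scale, while its neighbours PRR1 and RAD27 stood at -0.04 and 0.06 (limma, adjusted p = 0.284 and 0.169). MAG1 rose by 0.59, while DDI1 beside it fell by 0.12 (limma, adjusted p = 0.00577). The 7 tested neighbours of APN1, MAG1, REV1 and RAD23 had absolute log2 ratios of at most 0.235. These pairs were looked at after the values of the repair genes were seen.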
